A study of Mus musculus with 105 samples.

Results

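H19, Igf2, Dlk1 and Meg3 are the growth genes of a pair of imprinted clusters, and they were followed through liver RNA-seq of mice given the carcinogen DEN (diethylnitrosamine). They were found by symbol in the deposited table, which held all 4 among its 12966 genes. The 105 libraries fall into 30 groups, and every group, WT included, carried the DEN label, so the data hold no liver without DEN. Sequencing group 1 had 60 libraries, 4 in each group, from WT mice, from mice labelled Ikk KO (IKO) and from mice labelled Shp2 KO (SKO). Sequencing group 2 had 45 libraries, 3 in each group, from its own WT mice, from mice labelled beta catenin KO (BKO) and from mice labelled cMet KO (MKO). Each genotype was sampled as liver at 1, 3 and 5 months and, at 8 months, as non-tumour liver and as tumour. The title of the series places the losses in hepatocytes. The promoter that drove the deletion, the sex of the mice and the DEN dose are not given in the sources used here. The labels number the libraries as biological replicates without saying that each came from its own animal, so p-values measure the spread between libraries, which may in part be technical.

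In an imprinted gene only the copy from one parent is read. On mouse chromosome 7 the maternal copy makes H19, a long non-coding RNA, and the paternal copy makes Igf2, an insulin-like growth factor. Both use shared enhancers, and binding of the insulator protein CTCF at a control region between them on the maternal copy keeps Igf2 silent there. On chromosome 12 the paternal copy makes Dlk1, a membrane protein related to Notch ligands, and the maternal copy makes Meg3, a long non-coding RNA followed by Mirg and a large group of microRNAs. All 4 genes are abundant in the fetal liver and are switched down after birth, and renewed expression of H19, Igf2 and Dlk1 is known from liver tumours.

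By the GENCODE M21 annotation of GRCm38, H19 (ENSMUSG00000000031.16, a lincRNA) occupies chr7:142575529-142578143 on the minus strand. Igf2 (ENSMUSG00000048583.16, protein coding) occupies chr7:142650766-142666816 on the same strand, 72.6 kb away. Dlk1 (ENSMUSG00000040856.17, protein coding) occupies chr12:109452823-109463336 and Meg3 (ENSMUSG00000021268.17, a lincRNA) chr12:109541001-109571726, both on the plus strand and 77.7 kb apart. A read-through gene on the same strand, Gm49394, covers 62.8% of the Igf2 exon bases, and an antisense gene, Gm26906, covers 6.79% of those of Meg3, at its 3′ end. Neither gene was in the table. Whether such reads were dropped, shared or assigned depends on the annotation and strand setting of the counting, which are not given in the sources used here, so the absolute levels of Igf2 and Meg3 are uncertain.

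Of the 4 genes, 3 also carry microRNAs, which these libraries did not measure. The mature sequences are shown because a change in the host RNA is a change in the transcript from which they are cut. They are RefSeq entries on GRCm38.p6, written 5′ to 3′ with the seed (bases 2 to 8) in capitals:
mmu-miR-675-5p: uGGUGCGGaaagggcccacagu
mmu-miR-675-3p: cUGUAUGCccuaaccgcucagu
mmu-miR-483-5p: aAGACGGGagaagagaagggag
mmu-miR-483-3p: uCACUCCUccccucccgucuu
mmu-miR-770-5p: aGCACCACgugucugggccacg
mmu-miR-770-3p: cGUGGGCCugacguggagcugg
The miR-675 pair lies within an exon of H19, at chr7:142577112-142577133 and chr7:142577078-142577099, in 3 of the 7 annotated H19 transcripts. The miR-483 pair lies within Igf2, at chr7:142654968-142654989 and chr7:142654932-142654952, and in an exon of 0 of its 9 transcripts. The miR-770 pair lies within Meg3, at chr12:109563710-109563731 and chr12:109563744-109563765, in an exon of 1 of 11 transcripts. The 6 seeds all differ, and each is held by 1 of the 1679 mature mouse microRNAs in that table.

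The promoters of Dlk1 and Meg3, from 250 bases before the start to 50 after it, are shown because the 2 genes share a cluster while Meg3 was far more abundant. Capitals mark matches, on either strand, to a TATA box (TATAAA), a GC box (GGGCGG), the core recognised by TCF/LEF factors, the partners of beta-catenin (CTTTGA), and the cAMP response element (TGACGTCA):
Dlk1, chr12:109452573-109452872, plus strand: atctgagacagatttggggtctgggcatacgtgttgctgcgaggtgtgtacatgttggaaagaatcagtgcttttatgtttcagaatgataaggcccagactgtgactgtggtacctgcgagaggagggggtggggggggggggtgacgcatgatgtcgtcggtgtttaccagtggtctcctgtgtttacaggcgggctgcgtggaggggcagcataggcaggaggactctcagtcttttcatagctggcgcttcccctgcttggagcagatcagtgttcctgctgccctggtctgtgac
Meg3, chr12:109540746-109541045, plus strand: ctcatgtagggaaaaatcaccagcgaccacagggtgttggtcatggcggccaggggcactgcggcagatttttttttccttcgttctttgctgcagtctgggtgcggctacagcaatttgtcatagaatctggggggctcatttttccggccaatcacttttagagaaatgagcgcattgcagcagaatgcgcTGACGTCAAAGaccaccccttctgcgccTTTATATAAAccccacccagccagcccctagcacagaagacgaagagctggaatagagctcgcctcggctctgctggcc
The Meg3 window held 2 overlapping TATA matches, 1 TCF/LEF core and 1 cAMP response element, which overlap each other, and 13 CpG pairs. The Dlk1 window held none of these motifs and 9 CpG pairs. Of all 32851 promoter windows in the RefSeq table, 13.6% held the TATA box, 35.7% the GC box, 16% the TCF/LEF core and 1.79% the cAMP response element. The second Meg3 window (chr12:109545148-109545447) held 0 matches. Among 4 Igf2 windows, 1 held the TCF/LEF core, at chr7:142666767-142667066, and 2 held the GC box. These matches describe letters, not sites in use.

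The libraries of sequencing group 1 held between 4676444 and 10863046 reads in genes of the table, and those of group 2 between 6650086 and 20231121. Levels below are normalised reads, the reads recovered from the deposited log2 values after the authors' scaling for depth. Differences are on the deposited log2 scale, which compresses low values, with the limma standard error, and a gene was called at a Benjamini-Hochberg adjusted p below 0.05 over all 12966 genes. The library method, MAPS, is known as a 3′-end method, so the targeted gene's count need not fall when the deleted part lies elsewhere. Averaged over the 4 non-tumour stages, Ptpn11, which encodes Shp2, fell by 1.12 ± 0.08 in SKO, Ikbkb, which encodes a subunit of IKK, fell by 0.32 ± 0.07 in IKO, and Met fell by 0.31 ± 0.07 in MKO. At 3 months Ikbkb differed by 0.08 ± 0.14 in IKO and Met by -0.02 ± 0.14 in MKO, while Met also fell by 0.23 ± 0.08 in SKO over the non-tumour stages (limma adjusted p = 0.0221) and Ikbkb by 0.51 ± 0.14 in SKO at 1 month (0.00877). Ctnnb1, which encodes beta-catenin, differed by -0.01 ± 0.07 in BKO (limma adjusted p = 0.931), while 20 of 22 pericentral hepatocyte genes, a zone known to depend on beta-catenin, fell. The library labelled SKO 3 months replicate 2 held 375.1 normalised reads of Ptpn11, within the WT range of 350.1 to 387.7. The SKO non-tumour averages of H19 and Meg3 are given with and without it. The counts of listed genes and the shares of all genes in SKO non-tumour liver, and the correlations of group 1, include it.

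H19 covered a wide range of levels. In the 84 non-tumour libraries it ran from 3.20 through a median of 61.5 to 5969 normalised reads, and in the 21 tumour libraries from 42.6 through 1679 to 18998. Levels over 1000 normalised reads occurred in 13 of the 21 tumours and in 6 of the 84 non-tumour libraries. In WT liver of sequencing group 1, H19 stood at 39.6, 121, 44.8 and 84.4 normalised reads at 1 month, at 14.6, 6.90, 10.4 and 73.9 at 3 months, and at 30.1, 14.3, 6.70 and 31.4 at 5 months. In the WT of group 2 the values were 140, 76.1 and 54.7 at 1 month, 34.8, 21.2 and 13.2 at 3 months, and 13.5, 23.0 and 19 at 5 months. Most libraries of 3 and 5 months thus lay below those of 1 month, but no step between these ages was called in either WT.

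At 8 months WT non-tumour liver of group 1 held 153, 111, 133 and 5187 normalised reads of H19. The lowest of these lay above all 4 libraries of 5 months, and the difference was 3.16 ± 1.14 on the log2 scale (limma adjusted p = 0.0373), in a comparison where 21.7% of all genes were called and 11.8% were higher without overlap. Replicate 4 decided its size, since the difference was 1.90 without that library and no longer called, and the call also ended without any 1 of the 4 libraries of 5 months. In the WT of group 2 the 8-month values were 483, 217 and 25.3, all above those of 5 months, and the same step was not called.

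**Figure D1:**
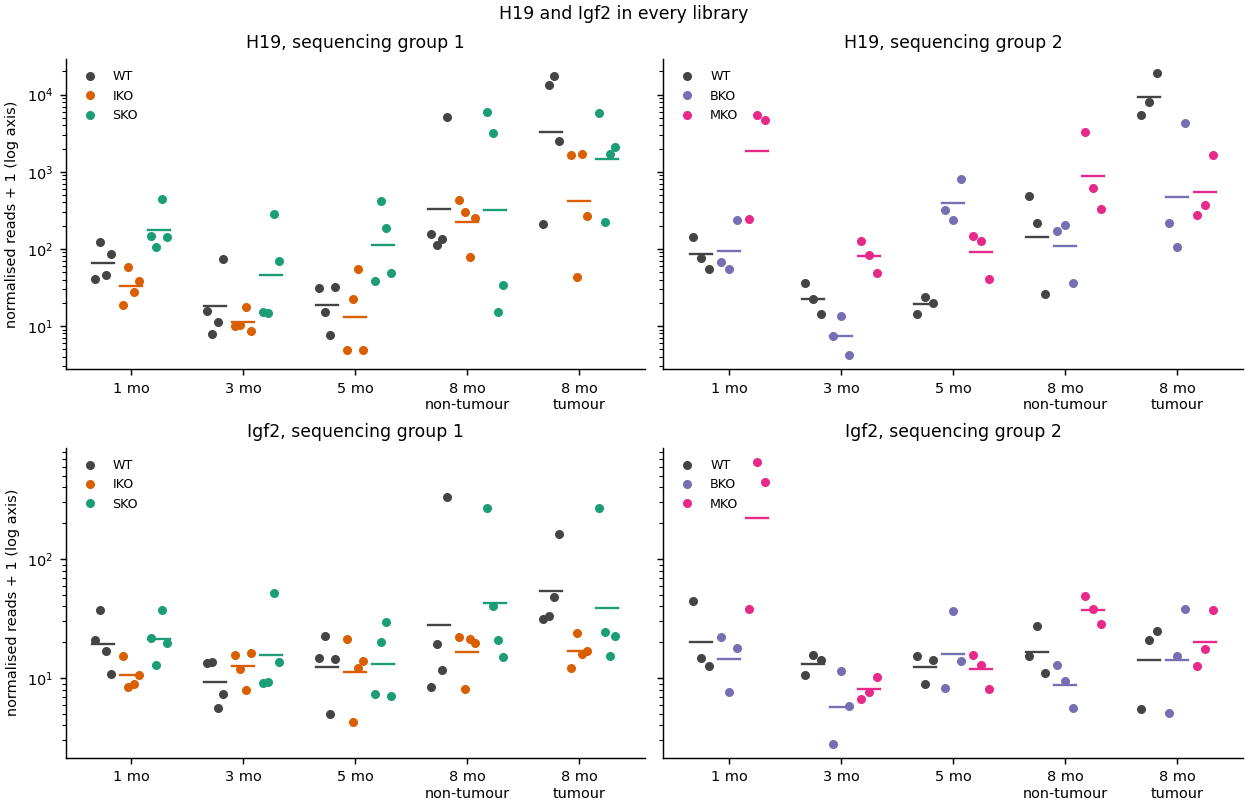
Normalised reads plus 1 (log axis) of H19 (top) and Igf2 (bottom) in each library, by stage and genotype, with sequencing group 1 on the left and group 2 on the right. Points are libraries and lines are means of the logs, and the 3 WT tumours of group 2 lie above 5000 for H19 while Igf2 reaches at most 23.9 in them.

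In MKO liver H19 was higher than in WT. At 1 month the MKO libraries held 245, 5439 and 4663 normalised reads against 54.7 to 140 in WT, at 3 months 125, 83.2 and 48.3 against 13.2 to 34.8, and at 5 months 144, 124 and 40.2 against 13.5 to 23.0. At 8 months MKO non-tumour liver held 3263, 616 and 329 against 25.3 to 483. The lowest MKO library lay above the highest WT library at 1, 3 and 5 months, and the groups overlapped at 8 months; by that measure 8.77%, 8.11% and 8.74% of all genes were higher at the first 3 ages. Averaged over the 4 stages H19 rose by 2.29 ± 0.49 (limma adjusted p = 0.00675), as 1 of the 4 genes called where 2.71% of all genes were. The call held in all 24 fits that left out 1 library. With the 1-month stage left out of the average the difference was 1.68 ± 0.57 and the adjusted p by limma was 0.107, so the call rests in part on that stage. The 1-month difference alone was 4.10 ± 0.98 (limma adjusted p = 0.0597) and missed the threshold. It passed, at the same size, with the replicate number as a block (limma adjusted p = 0.0102) and, at 5.51, without MKO replicate 1 (0.00468). The latter was the 1 call among its 6 fits without 1 library, in which the adjusted p by limma reached 0.45. Same-numbered MKO and WT libraries of 1 month did not deviate together (r from -0.24 to -0.15 over all genes). The block there thus rests on no pairing that the values show.

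In the other knockouts the non-tumour average of H19 was not called. It stood at 1.01 ± 0.57 in SKO (limma adjusted p = 0.202, and 1.11 without the library labelled SKO 3 months replicate 2), 0.60 ± 0.49 in BKO (0.422) and -0.46 ± 0.57 in IKO (0.689), where 9.04% of all genes were called. SKO was above WT at each of the 4 stages and IKO below at each, and no single stage was called. At 5 months SKO held 37.8, 423, 187 and 48.4 normalised reads, all above the WT range of 6.70 to 31.4, as 5.72% of all genes were without overlap, and the difference was 1.78 ± 1.14 (limma adjusted p = 0.395). In SKO at 8 months the 4 non-tumour libraries split widely, at 5969, 3155, 14.3 and 33.4 normalised reads. At 5 months the BKO libraries held 319, 239.5 and 796 normalised reads against 13.5, 23.0 and 19 in WT. The groups did not overlap, which was so for 14.5% of all genes in that direction, and H19 rose by 3.34 ± 0.98 (limma adjusted p = 0.0346), against 6.44% of all genes called. At 3 months BKO held 6.35, 12.5 and 3.20, below the WT range, and at 1 and 8 months the groups overlapped. The interaction of BKO with stage was not called for H19 (moderated F test of limma, adjusted p = 0.247, against 0.663% of all genes called), and the 5-month call was lost in 5 of the 6 fits without 1 of its libraries, the exception being BKO replicate 2. At that stage 6 of 18 measured fetal liver and liver tumour markers also rose in BKO, among them Tff3, a trefoil peptide, by 4.49 ± 0.82, Sox9, a biliary and progenitor factor, by 1.52 ± 0.31 and Scd2, a fatty acid desaturase, by 2.60 ± 0.60. With them 7 of 15 stellate cell markers and 3 of 7 cholangiocyte markers rose. The part of these in the H19 value was not tested.

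In tumours H19 was highest in WT. The WT tumours of group 1 held 207, 13446, 17311 and 2479 normalised reads and those of group 2 held 5494, 8038 and 18998. SKO tumours held 5713, 224, 1697 and 2104, IKO tumours 1640, 42.6, 1679 and 264, BKO tumours 214, 106 and 4333, and MKO tumours 272, 374 and 1637. All BKO and MKO tumours lay below all WT tumours of their sequencing group, whereas the group 1 tumours overlapped. By that measure 5.74% of all genes were lower in BKO and 7.15% in MKO.

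Against WT tumours H19 fell by 4.19 ± 0.98 in BKO tumours (limma adjusted p = 0.0352) and fell by 4.01 ± 0.98 in MKO tumours (limma adjusted p = 0.0161). Of all genes 0.548% were called in the BKO tumours and 4.03% in the MKO tumours. Both comparisons share the 3 WT tumours. Both calls ended, at the same size, when only the tumours compared entered the fit (adjusted p by limma 0.703 and 0.253), and neither held in every fit without 1 library: the BKO call was lost without WT replicate 2 or 3 or BKO replicate 1 or 2, and the MKO call without WT replicate 3 or MKO replicate 1 or 2. In IKO the difference was -2.81 ± 1.14 (limma adjusted p = 0.182, and -4.10 with 0.0246 without WT tumour replicate 1) and in SKO -1.17 ± 1.14 (0.705). The IKO difference was called in that 1 of its 8 fits without 1 library, and its adjusted p by limma reached 0.464.

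Set against non-tumour liver of the same age, H19 rose in WT tumours, by 3.17 ± 1.14 in group 1 (limma adjusted p = 0.0205) and by 5.69 ± 0.98 in group 2 (4.03e-05). In group 2 the lowest WT tumour, at 5494, lay far above the highest non-tumour library, at 483, as 19.7% of all genes did without overlap, and the call held without any 1 library. In group 1 the call was lost without any 1 of non-tumour replicates 1 to 3 or tumour replicates 2 and 3. The tumour differences were 1.75 ± 1.14 in SKO, 0.93 ± 1.14 in IKO, 1.90 ± 0.98 in BKO and -0.64 ± 0.98 in MKO, and none of these was called, where 39.7%, 33.3%, 14.7% and 17.3% of all genes were. Without non-tumour replicate 1 the SKO difference was 2.99 (limma adjusted p = 0.0348), and the MKO difference changed sign, to 0.289. The SKO difference was called in that 1 of its 8 fits without 1 library, and its adjusted p by limma reached 0.76. H19 was thus 1 of the genes called in both WT comparisons, where 42.1% and 27.1% of all genes were.

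The tumour differences of each knockout and its WT were themselves compared for H19. The comparison with WT was not called in BKO (-3.79 ± 1.39, limma adjusted p = 0.552), IKO (-2.24 ± 1.61, 0.785) or SKO (-1.42 ± 1.61, 0.793). A rise particular to WT tumours was thus not established against these knockouts. Between MKO and WT the difference was -6.32 ± 1.39 (limma adjusted p = 0.0445), 1 of 17 genes called, or 0.131% of all. High H19 in MKO non-tumour liver and low H19 in MKO tumours both enter this value. It kept its sign and a size of 5.38 or more in each fit without 1 library, but its adjusted p by limma ranged from 0.0248 to 0.144 in them, and the call was lost in 8 of the 12. At the same size the call was also lost with the filter on low values (limma adjusted p = 0.0569), with the replicate number as a block (0.0779) and with only the groups compared in the fit (0.581). On recovered reads by limma-voom the value was -6.74 with an adjusted p of 0.0716.

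Of 18 measured fetal liver and liver tumour markers, 16 rose in WT tumours of group 1 and 15 in those of group 2, with list medians of 3.02 and 2.60 against 0.0355 and 0.0163 over all genes. Gpc3, a cell-surface proteoglycan used as a liver cancer marker, rose by 5.05 ± 0.42 and 4.24 ± 0.44, and Golm1, a Golgi protein, by 3.69 ± 0.27 and 2.93 ± 0.35. In the tumours of the knockouts 13 of these markers rose in SKO, 12 in IKO, 9 in BKO and 9 in MKO. Of all genes 39.7%, 33.3%, 14.7% and 17.3% were called there, and 42.1% and 27.1% in the WT tumours. Between MKO and WT tumours 4.03% of all genes were called. There 1 of the 18, Krt19, a keratin of bile ducts, rose by 1.08 ± 0.25 and 1, Cdkn3, a cell-cycle phosphatase, fell by 1.08 ± 0.27. Of 13 macrophage markers 9 rose in the MKO tumours, with summed levels of 7024 to 13865 normalised reads against 2971 to 3468 in WT tumours. Hepatocyte markers stood at 2570100 to 2973000 against 2785070 to 4123330. The part of either in the lower H19 of these tumours was not tested, and in bulk tissue fewer cells of a type and less RNA per cell cannot be told apart.

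A list of 12 repressors of fetal liver genes, all measured, included Zbtb20, known to repress Afp after birth. Zbtb20 differed between tumour and non-tumour liver by -1.3 ± 0.19 and -0.90 ± 0.15 in the WT groups, -1.1 ± 0.19 in SKO, -1.05 ± 0.19 in IKO and -0.71 ± 0.15 in BKO, each called. Of all genes 42.1%, 27.1%, 39.7%, 33.3% and 14.7% were called there. How the other listed repressors moved in tumours, and Zbtb20 in MKO tumours, is not given here. In MKO non-tumour liver, where H19 rose and 2.71% of all genes were called, 0 of the 12 were called. Zbtb20 stood at -0.22 ± 0.07 there (limma adjusted p = 0.0961). The part of these repressors in the H19 values was not tested.

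By the lower of the r values in the sequencing groups, with predicted genes passed over, the 4 genes most like H19 over all libraries were Prom2 (Pearson r 0.76 over the 60 libraries of group 1 and 0.72 over the 45 of group 2), Cyp2a4, a steroid hydroxylase (0.79 and 0.71), Cdkn3 (0.71 and 0.70) and Mthfd1l, a mitochondrial folate enzyme (0.75 and 0.69). Afp, a fetal liver protein, stood at 0.76 and 0.66, Gpc3 at 0.74 and 0.59 and Igf2 at 0.67 and 0.56. These are descriptions, since the libraries share genotypes, stages and tumours.

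Igf2 was low in nearly all libraries. Its median was 13.1 normalised reads in non-tumour liver and 21.5 in tumours, and 99 of the 105 libraries held 50.5 or fewer. The other 6 held over 100, and each of these 6 held at least 2479 of H19. They were WT 8-month non-tumour replicate 4 with 331, SKO 8-month non-tumour replicate 1 with 268, MKO 1-month replicates 2 and 3 with 657 and 447, WT tumour replicate 4 of group 1 with 162 and SKO tumour replicate 1 with 269.

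In MKO liver at 1 month Igf2 stood at 36.9, 657 and 447 normalised reads against 43.3, 13.8 and 11.7 in WT. It rose by 2.62 ± 0.46 (limma adjusted p = 0.00571), where 24 genes, 0.185% of all, were called. The groups overlapped through MKO replicate 1, and the call ended without any 1 of WT replicates 2 and 3 and MKO replicates 2 and 3, with differences from 1.96 to 3.69 over the 6 fits. At 3 months MKO held 5.73, 6.66 and 9.13 against 9.55, 14.6 and 13.2 in WT, at 5 months 14.7, 12 and 7.15 against 14.3, 7.97 and 13.1, and at 8 months 47.6, 37.2 and 27.4 against 14.2, 26.4 and 10.1. All MKO libraries were thus below WT at 3 months, as were 7.94% of all genes, and above WT at 8 months, as were 12.5%, and neither stage was called. The MKO average over the 4 stages, 0.74 ± 0.23, was not called (limma adjusted p = 0.0734) and was 0.11 ± 0.27 without the 1-month stage. From 1 month to 8 months Igf2 fell by 2.14 ± 0.46 within MKO (limma adjusted p = 0.00265, against 13.2% of all genes), and this held without any 1 library. The interaction of MKO with stage had an adjusted p of 0.0586 for Igf2 by limma's moderated F test, against 0.339% of all genes called.

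In tumours 0 of 6 comparisons with non-tumour liver were called for Igf2 (lowest limma adjusted p 0.507, and 0 of 6 at an unadjusted p below 0.05). Between knockout and WT tumours 0 of 4 were called (lowest limma adjusted p 0.288), and 1 of 4 had an unadjusted p below 0.05. That 1 was IKO, at -1.05 ± 0.51 (limma unadjusted p = 0.0443). WT tumours of group 1 held 30.7, 32.0, 47.1 and 162 normalised reads, and those of group 2 held 4.49, 20.1 and 23.9. IKO tumours held 11.2 to 23.1, SKO tumours 14.5 to 269, BKO tumours 4.07 to 36.8 and MKO tumours 11.7 to 36.3. Tumours overlapped non-tumour liver of 8 months in every genotype, in WT of group 1 only through non-tumour replicate 4, at 331.

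H19 and Igf2 therefore stood in different proportions in the libraries with much H19. Of the 6 non-tumour libraries over 1000 normalised reads of H19, Igf2 ran from 39.5 through a median of 299 to 657, with 8.28 to 79.97 reads of H19 for each read of Igf2. Of the 13 tumours over that level Igf2 ran from 4.49 through 23.9 to 269, with 15.3 to 1223 reads of H19 per read of Igf2. The ranges overlap, and the libraries were picked here for their H19 level after the values were seen, so no test is given.

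**Figure D2:**
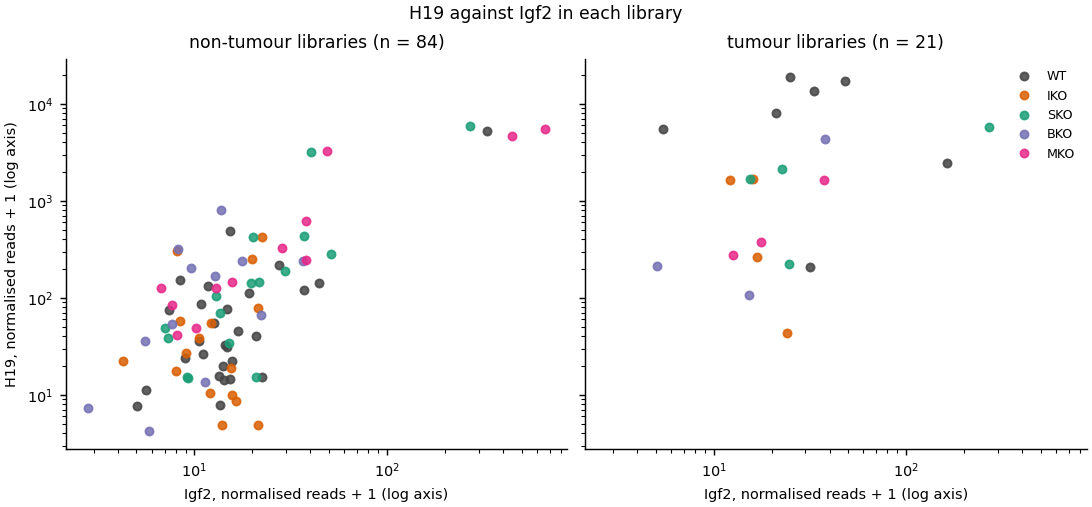
H19 against Igf2 in each library, both as normalised reads plus 1 on log axes, for the 84 non-tumour libraries (left) and the 21 tumours (right), coloured by genotype. The 4 non-tumour libraries over 100 for Igf2 sit at the upper right, and most tumours over 1000 for H19 sit at Igf2 levels below 50.

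Within groups, the 2 genes rose and fell together in non-tumour liver of sequencing group 1. Over its 48 libraries the deviations from the group means had Pearson's r = 0.744 (permutation p = 0.00079, adjusted p = 0.019 over 24 relations) and Spearman's rho = 0.525 (permutation p = 0.00497, adjusted p = 0.118). Without the 2 libraries farthest from the median of H19, WT 8-month replicate 4 and SKO 8-month replicate 1, r was 0.572. For this r, and those like it below, the group means still included the libraries left out. They therefore do not show the relation free of those libraries. On the log2 of normalised reads plus 1 r was 0.626 and its adjusted p was 0.0732, so the call depends on the scale. The 36 non-tumour libraries of group 2 gave r = 0.667 (permutation p = 0.0140, adjusted p = 0.142) and rho = 0.519 (permutation p = 0.0149, adjusted p = 0.119), and r = 0.488 without MKO 1-month replicate 1 and WT 8-month replicate 3. In the 12 tumours of group 1 r was 0.195 (exact permutation p = 0.615, adjusted 0.820) and rho 0.112 (exact permutation p = 0.707), and 0.180 without the 2 farthest. In the 9 tumours of group 2 r was 0.808 (exact permutation p = 0.0463, adjusted 0.278) and rho 0.817 (exact permutation p = 0.0324, adjusted 0.191), and 0.568 without the 2 farthest. The difference between these sets was not tested, and none of the other 20 relations among the 4 genes was called.

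Of 17 measured IGF ligands, receptors and binding proteins, 5 rose and 4 fell in WT tumours of group 1, and 3 rose and 5 fell in those of group 2, where 42.1% and 27.1% of all genes were called. Igfbp1, a secreted IGF-binding protein, rose by 5.24 ± 0.64 and 5.15 ± 0.72, Igf1, the main postnatal IGF of the liver, differed by -2.01 ± 0.25 and -2.35 ± 0.31, and Igfals, which carries IGFs in the blood, by -1.86 ± 0.28 and -2.35 ± 0.38, both called as lower. In MKO liver over the non-tumour stages, where 2.71% of all genes were called, 2 of the 17 rose and 3 fell, the latter being Igfbp2, which fell by 0.71 ± 0.15, Igf2bp2, an RNA-binding protein, which fell by 0.42 ± 0.11, and Insr, the insulin receptor, which fell by 0.34 ± 0.07. Igf2r, the receptor that clears Igf2, rose from non-tumour liver to tumour by 0.60 ± 0.15 in SKO and by 0.42 ± 0.14 in BKO.

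Of 13 measured neighbours in the cluster of H19 and Igf2 and the adjacent Kcnq1 cluster, 3 rose in SKO non-tumour liver, 2 in BKO and 0 in MKO, where 22.9%, 19.6% and 2.71% of all genes were called. In WT tumours 5 of the 13 rose in each sequencing group, beside 42.1% and 27.1% of all genes called, among them Phlda2, a placental growth regulator, by 1.17 ± 0.20 and 1.06 ± 0.27. At 5 months in BKO, where H19 rose, Phlda2 rose by 0.91 ± 0.27 and Kcnq1ot1, the non-coding RNA of the neighbouring domain, by 0.78 ± 0.23. Ins2, Nctc1, Mrpl23 and Igf2os were not analysed here. By the same ranking the 4 genes most like Igf2 over all libraries were H19 (r 0.67 and 0.56), Fmo2, a flavin monooxygenase (0.45 and 0.53), Ngp, a neutrophil granule protein (0.42 and 0.47), and Ifi207 (0.42 and 0.41).

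Meg3 was lower in the livers of 2 knockouts. At 1 month SKO held 9.73, 21.3, 20.3 and 21.2 normalised reads against 69.3, 72.5, 70.7 and 40.6 in WT. At 3 months it held 16.3, 81.1, 39.4 and 9.48 against 350, 271, 90.8 and 84.5, and at 5 months 38.8, 70.1, 74.6 and 31.4 against 132, 323, 220 and 91.2. At 8 months SKO held 211, 40.5, 27.5 and 54.2 against 324, 121, 131 and 209. All SKO libraries lay below all WT libraries at 1, 3 and 5 months, where 9.39%, 3.85% and 7.65% of all genes did so, and the groups overlapped at 8 months. Over the 4 stages Meg3 fell by 1.39 ± 0.34 (limma adjusted p = 0.00177), as 1 of 4 genes called where 22.9% of all genes were. The call held in all 32 fits without 1 library. Without the library labelled SKO 3 months replicate 2, whose 81.1 was the highest SKO value of its stage, the difference was -1.47 ± 0.34 (limma adjusted p = 0.000995).

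In BKO liver Meg3 stood at 15.3, 25.5 and 18.9 normalised reads at 1 month against 39.4, 67.1 and 78.7 in WT, at 8.17, 10.4 and 7.20 at 3 months against 320, 170 and 106, and at 31.1, 18.1 and 36.3 at 5 months against 325, 221 and 231. The groups did not overlap at these 3 ages, where 12.9%, 9.46% and 12.5% of all genes were lower without overlap. At 8 months the BKO libraries spread from 849 through 208 to 23.6 around a WT range of 108 to 345. Over the 4 stages Meg3 fell by 1.57 ± 0.40 (limma adjusted p = 0.00525), where 19.6% of all genes were called, and this held in all 24 fits without 1 library. Without the 8-month stage the difference was -2.07 ± 0.47 (limma adjusted p = 0.00228). By single stage it was -2.79 ± 0.81 at 3 months (limma adjusted p = 0.0747) and -2.44 ± 0.81 at 5 months (0.0609). The interaction of BKO with stage was not called (limma adjusted p = 0.386).

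In IKO Meg3 stood below WT at each of the 4 stages, by -0.71 ± 0.34 on average (limma adjusted p = 0.194), and in MKO it differed by 0.17 ± 0.40 (0.878). WT itself held less Meg3 at 1 month, 40.6 to 72.5 in group 1 and 39.4 to 78.7 in group 2, than at 3 months, 84.5 to 350 and 106 to 320. The WT libraries of 1 and 3 months did not overlap in either sequencing group, but the step was not called in either, and 4.43% and 8.42% of all genes were higher without overlap there.

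**Figure D3:**
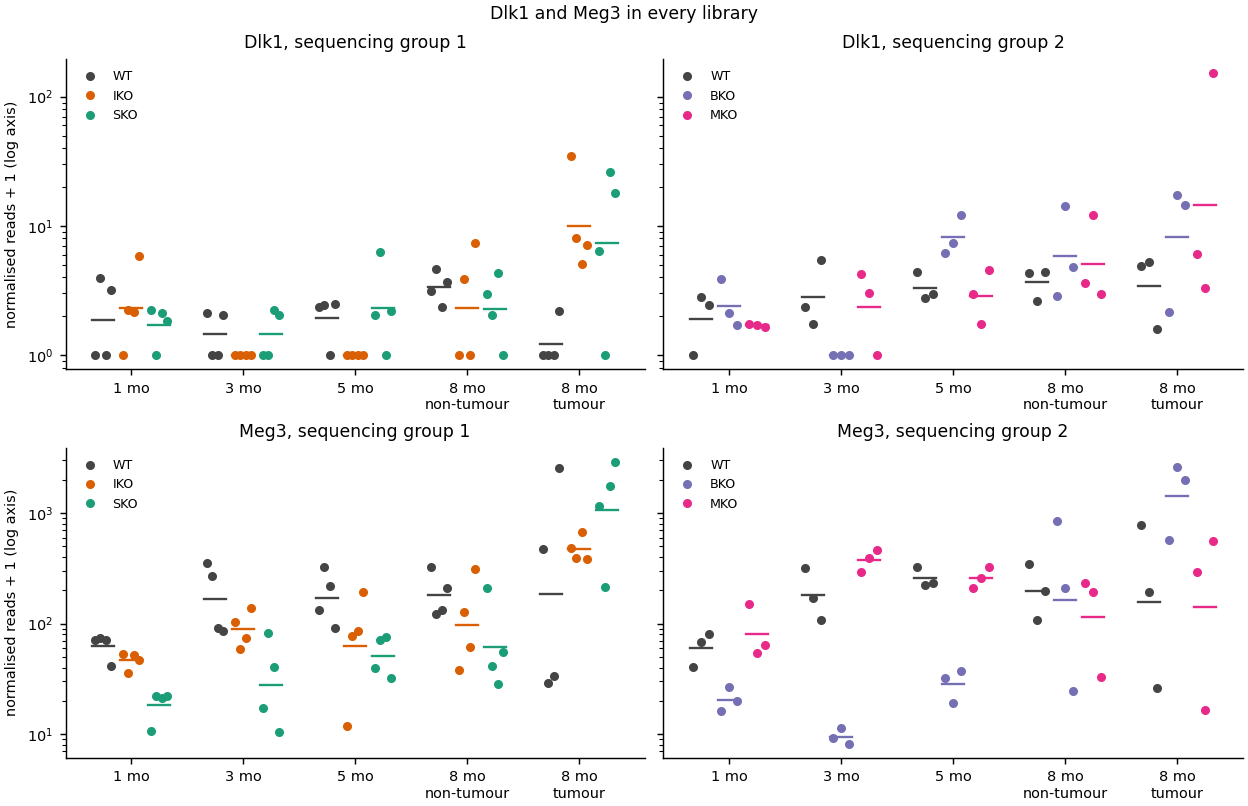
Normalised reads plus 1 (log axis) of Dlk1 (top) and Meg3 (bottom) in each library, by stage and genotype, with sequencing group 1 on the left and group 2 on the right. Points are libraries and lines are means of the logs, and the BKO libraries of 1, 3 and 5 months reach at most 36.3 for Meg3 while the WT libraries of those ages in group 2 start at 39.4.

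Marker genes of other cells moved in these livers as well. In SKO all 13 macrophage markers rose and 6 of 10 hepatocyte markers and 12 of 20 periportal genes fell, where 22.9% of all genes were called. In BKO, where 19.6% were, 20 of 22 pericentral genes fell, 13 of 15 stellate cell markers, 6 of 13 macrophage markers and 5 of 7 cholangiocyte markers rose, and none of the hepatocyte markers fell (4 of 10 rose). Summed pericentral levels in BKO were 3584 to 22401 normalised reads over the non-tumour stages, with 0 of the 22 genes at 0, against 23181 to 59374 in WT. In MKO liver, without a call for Meg3, 0 of 22 pericentral genes and 0 of 15 stellate markers were called, where only 2.71% of all genes were. The part of these in the Meg3 values was not tested.

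In tumours none of the 4 comparisons of Meg3 between knockout and WT was called. SKO tumours held 1170, 213, 1772 and 2913 normalised reads of Meg3, IKO tumours 487, 393, 680 and 384, and WT tumours of group 1 471, 28.0, 32.2 and 2532. BKO tumours held 569, 2636 and 1980, MKO tumours 291, 15.7 and 564, and WT tumours of group 2 774, 194 and 25.1. WT and MKO tumours thus each held both high and low libraries, and each knockout overlapped WT. All 4 SKO tumours lay above all 4 SKO non-tumour libraries of 8 months, where 18.3% of all genes did, and likewise in IKO (16.2%), while BKO overlapped.

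Meg3 rose from non-tumour liver to tumour in SKO by 3.63 ± 0.68 (limma adjusted p = 1.94e-05), in IKO by 1.96 ± 0.68 (0.0213) and in BKO by 2.78 ± 0.81 (0.0175). Of all genes 39.7%, 33.3% and 14.7% were called there. The SKO call held in each of 8 fits without 1 library, the IKO call in 5 of 8 (lost without non-tumour replicate 1 or 3 or tumour replicate 3) and the BKO call in 2 of 6 (lost without replicate 2 or 3 of either tissue), and the BKO call ended when only its tumour and non-tumour libraries entered the fit (limma adjusted p = 0.166). In WT of either group and in MKO the tumour difference was not called. A larger rise in SKO than in WT was not established, since the difference of the tumour effects, 3.38 ± 0.96, had an adjusted p of 0.124 by limma (0.0041, at 4.5, without WT tumour replicate 4). That was the 1 call among its 16 fits without 1 library, in which the adjusted p by limma reached 0.297. Directly between tumours, Meg3 differed from WT by 2.16 ± 0.68 in SKO (limma adjusted p = 0.0871), 1.01 ± 0.68 in IKO (0.483) and 2.83 ± 0.81 in BKO (0.106). Without the WT tumour that held 2532, replicate 4, the SKO difference was 3.28 (limma adjusted p = 0.000681) and the IKO difference 2.13 (0.0344). Over the 8 fits without 1 library the SKO difference was called in 2, and its adjusted p by limma reached 0.458. The IKO difference was called in 1 of 8, with an adjusted p by limma of up to 0.909.

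**Figure D4:**
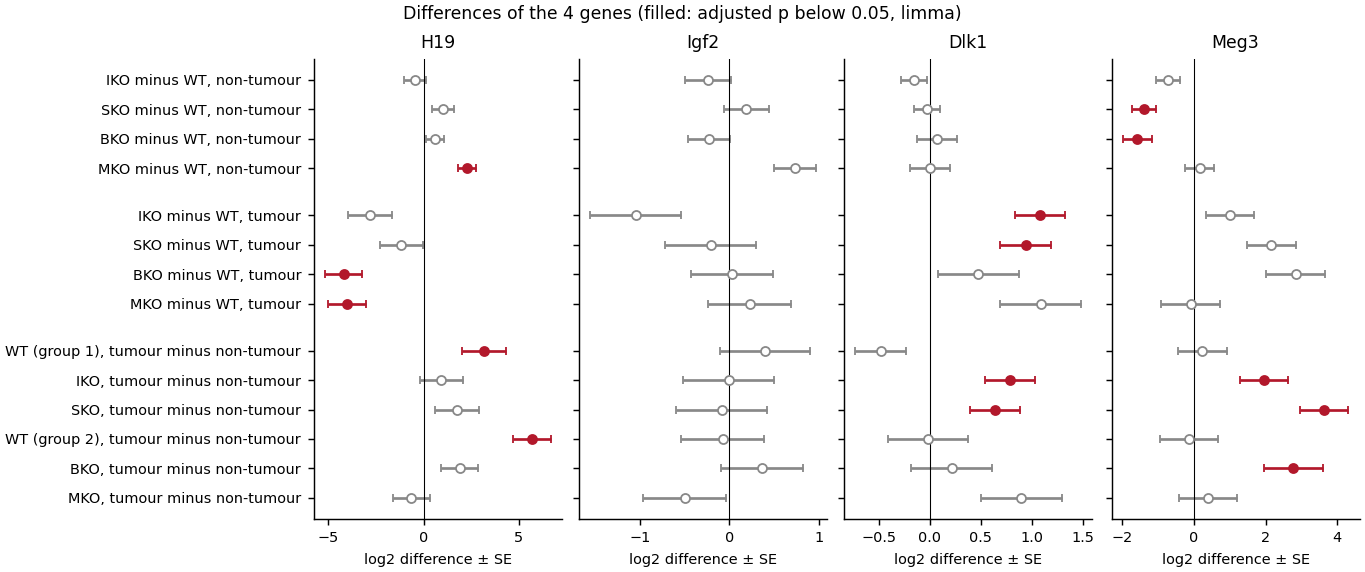
Log2 differences (points) with limma standard errors (bars) of H19, Igf2, Dlk1 and Meg3 for knockout minus WT averaged over non-tumour stages, for knockout minus WT in tumours, and for tumour against non-tumour liver of 8 months. Filled points have an adjusted p below 0.05, and the scale of the x axis differs between genes.

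Mirg, the microRNA-bearing transcript that follows Meg3 on the same strand, was among the 4 genes most like Meg3, ranked by the lower of the r values in the sequencing groups (0.81 over 60 libraries and 0.68 over 45). In non-tumour liver it held at most 6.90 normalised reads. In SKO tumours it held 26.9, 0, 26.4 and 67.7 normalised reads, in IKO tumours 14.4, 10.7, 9.52 and 9.76 and in BKO tumours 7.56, 17.9 and 20.7, and in WT tumours 6.14, 0, 2.48 and 35.0 in group 1 and 4.49, 1.83 and 0.60 in group 2. It rose in tumours of SKO by 1.23 ± 0.31 (limma adjusted p = 0.00117), of IKO by 0.92 ± 0.31 (0.0180) and of BKO by 0.96 ± 0.22 (0.00277). In non-tumour liver of SKO and BKO, where Meg3 fell, Mirg differed by -0.06 ± 0.16 and -0.09 ± 0.11 and was not called, at levels of a few reads that allow little to be seen. The other 3 were Wbp1 (0.59 and 0.69), Bmp7, a bone morphogenetic protein (0.59 and 0.71), and Erich4 (0.68 and 0.58).

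**Figure D5:**
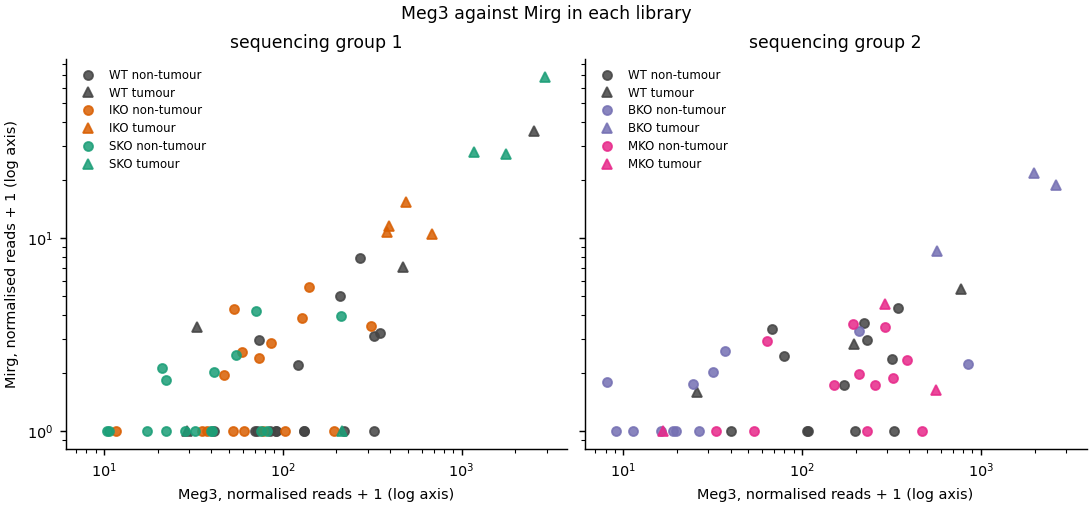
Meg3 against Mirg in each library, both as normalised reads plus 1 on log axes, for sequencing group 1 (left) and group 2 (right), with circles for non-tumour liver and triangles for tumours. The tumours with the most Meg3, at 2913 and 2532 on the left and 2636 on the right, hold 67.7, 35.0 and 17.9 of Mirg.

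The other genes of the Dlk1 and Meg3 cluster were mostly housekeeping neighbours. Of 7 measured, 3 rose and 1 fell in SKO tumours and in IKO tumours, and 2 rose and 1 fell in WT tumours of group 1. Of all genes 39.7%, 33.3% and 42.1% were called in the SKO, IKO and WT tumours. Wars, a tRNA synthetase, rose by 0.96 ± 0.17, 0.80 ± 0.17 and 0.88 ± 0.17 in these tumours. Yy1, a transcription factor, was the 1 gene of the 7 called in SKO non-tumour liver, where it fell by 0.28 on the log2 scale. Begain, Rtl1, Rian, Dio3 and Degs2 were not analysed here. Of 17 measured genes of imprint maintenance and DNA methylation, 2 rose and 3 fell in SKO liver, and 1 rose and 2 fell in BKO, shares near the 22.9% and 19.6% of all genes called there.

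Dlk1 was close to absent. In non-tumour liver its reads ran from 0 to 21 with a median of 1, and 69 of the 84 libraries had 3 reads or fewer, 26 of them 0, so differences there were not detectable at this depth. In tumours the reads were 0, 0, 0 and 1 in WT of group 1, 4, 0, 19 and 11 in SKO, and 21, 4, 3 and 5 in IKO, and 6, 7 and 1 in WT of group 2, 2, 31 and 26 in BKO, and 10, 5 and 233 in MKO. All IKO tumours lay above all WT tumours of their group, as did 4.14% of all genes, and SKO overlapped through its replicate 2. MKO tumour replicate 3 stood apart at 151 normalised reads, where the highest non-tumour library held 13.2.

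Against WT tumours Dlk1 rose by 1.08 ± 0.25 in IKO (limma adjusted p = 0.00524) and by 0.94 ± 0.25 in SKO (0.0326), where 3.6% and 1.72% of all genes were called. These differences understate the change at such counts. Both share the WT tumours, with 1 read in all, and both calls ended when only the tumours compared entered the fit (limma adjusted p = 0.131 and 0.405). Against non-tumour liver Dlk1 rose by 0.79 ± 0.25 in IKO tumours (limma adjusted p = 0.0107) and by 0.64 ± 0.25 in SKO tumours (0.0334), where 33.3% and 39.7% of all genes were called. These calls too ended with only the groups compared in the fit (limma adjusted p = 0.0724 and 0.163). A larger tumour rise of Dlk1 than in WT was not established. The differences of the tumour effects were 1.27 ± 0.35 in IKO (limma adjusted p = 0.117) and 1.12 ± 0.35 in SKO (0.1725). In WT of group 1 the tumour difference itself was -0.48 ± 0.25 and was not called (limma adjusted p = 0.113). The IKO call against WT was lost without IKO tumour replicate 1, and the SKO call without any 1 of WT tumour replicates 1 to 3 and SKO tumour replicates 3 and 4. Against non-tumour liver the IKO call was lost without non-tumour replicate 1 or 3 or tumour replicate 1, and the SKO call without non-tumour replicate 2 or 4 or tumour replicate 3 or 4. In MKO tumours the difference of 1.09 ± 0.40 was not called (limma adjusted p = 0.120). It was 0.11 without replicate 3 and passed, at 1.64, without replicate 2 (limma adjusted p = 0.0249).

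Since Dlk1 resembles Notch ligands, the Notch pathway was set beside it. Of 17 measured genes 7 rose in WT tumours of group 1, in which Dlk1 was at 0 or 1 read, 5 rose in IKO tumours, and 3 rose and 1 fell in SKO tumours, where 42.1%, 33.3% and 39.7% of all genes were called. Between IKO or SKO tumours and WT tumours 0 of the 17 were called. By the ranking used for H19 the 4 genes most like Dlk1 over all libraries were Cdh17, a cadherin of gut epithelium (r 0.65 and 0.59), Myrip (0.55 and 0.60), Selenom, a selenoprotein (0.54 and 0.57), and Myo7b, a myosin of brush borders (0.53 and 0.54). Dlk1 and Meg3 correlated at 0.53 and 0.40 over all libraries. Within groups they had r = 0.507 in the 12 tumours of group 1 (exact permutation p = 0.0178, adjusted p = 0.142, and rho 0.458, exact permutation p = 0.0538). Without the 2 libraries farthest from the median of Dlk1 r was 0.449, with group means that still included them.

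Among imprinted genes outside the 2 clusters, 28 of 41 listed were measured. In MKO liver over the non-tumour stages, where H19 rose, 1 of the 28 rose, Gnas, a G protein subunit, by 0.34 ± 0.08, and 2 fell: Ppp1r9a, a neuronal scaffold protein, which fell by 1.19 ± 0.13, and Peg10, a placental gene of retroviral origin, which fell by 0.67 ± 0.17. Peg10 rose in BKO by 0.71 ± 0.17, and at 5 months by 1.87 ± 0.35. In SKO liver 5 of the 28 rose and 4 fell. Of all genes 22.9% were called in SKO and 2.71% in MKO non-tumour liver. List medians in the 3 knockouts were 0.03, -0.01 and 0.01 for MKO, BKO and SKO, beside 0.01 over all genes.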

How the data were processed

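Per the labels' protocols, liver RNA libraries were made by MAPS and sequenced on an Illumina machine. Per the submitters' processing notes, the tools were STAR 2.7.10a, HTSeq 2.0.2 and DESeq2 1.32.0, with GRCm38. The authors deposited 1 log2 value per gene and library, variance-stabilised as the values themselves show, with a floor of 3.83 where a gene had 0 reads. Undoing the transform gave whole reads within 0.05 for 100.0% of values under 5000 reads. These served for levels, and the tests used the deposited values. Depth ranged from 4676444 to 20231121 reads, without molecular identifiers, so counting error is a lower bound.

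Each sequencing group was fitted alone in R 4.3.3 with limma 3.58.1 (1 mean per group, trend, Benjamini-Hochberg per comparison). The script was tested on simulated data. Alternatives were a filter on low values, quantile normalization, no trend, a replicate block, only the groups compared, limma-voom on recovered reads (depth from the size factors in the values) and leaving out each library. Correlations used deviations from group means and 100000 permutations within groups in non-tumour libraries, or all of them in tumours.

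Replicate numbers were checked as pairs by correlating same-numbered deviations, and needed r over 0.1 in every pair. They did so in 2 of 38 pairs of groups, with r from -0.29 to 0.35 over all 38. The 2 were BKO tumours with BKO non-tumour liver of 8 months (0.23 to 0.33) and MKO with WT non-tumour liver of 8 months (0.12 to 0.30). The main fit did not pair libraries in these groups either. No library was a copy of another.

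The members and the gene lists were chosen with earlier results of these data known. Named were the 4 members, the 4 targeted genes, up to 3 called genes per list with the smallest p (or the 2 most abundant) where a member was called, and the 4 genes most like each member.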

Additional observations from a re-analysis of the deposited data

Results flagged for a closer look

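In 50 sets of 4 libraries, 6 held 1 value separated from the next by more than Dixon's critical share of the set's range, and chance gives about 1 in 20. WT non-tumour replicate 4 at 8 months, in sequencing group 1, was the highest of its set for H19, at 5187 normalised reads, and for Igf2, at 331.1. IKO non-tumour replicate 2 at 8 months was the lowest for Igf2, at 7.113. SKO tumour replicate 1 was the highest for Igf2, at 269.3. At 1 month WT replicate 4 was the lowest of its set for Meg3, at 40.55, and SKO replicate 1 the lowest of its own, at 9.733.

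The tumour effect on H19 differed between MKO and WT by -6.32 on the log2 scale (limma adjusted p = 0.0445). The call was lost in 8 of the 12 fits without 1 library, with the filter on low values, with the replicate number as a block, by limma-voom on recovered reads and with only the groups compared in the fit.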

How the results depend on the processing

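Of 39 differences of single genes, all kept their direction and their side of the threshold with quantile normalization and without the trend. The filter removed Dlk1 and left 34, of which H19 in the difference of tumour effects of MKO and WT was lost (-6.32, adjusted p by limma 0.0569). With the replicate number as a block 37 stayed on their side of the threshold, called or not. H19 in MKO at 1 month (4.10) gained a call and the same difference of tumour effects (-6.32) lost its call. The numbers paired few groups, and the block moved the genes called in that difference from 17 to 9 and in the one of SKO and WT from 4 to 22.

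With only the groups compared in the fit, 25 stayed on their side of the threshold, called or not, 12 lost a call and 2 gained one. Lost were H19 in BKO tumours (-4.19), MKO tumours (-4.01), WT tumours of group 1 against non-tumour liver (3.17), WT from 5 to 8 months (3.16) and the difference of tumour effects (-6.32), Igf2 in MKO at 1 month (2.62) and from 1 to 8 months (-2.14), Meg3 in BKO tumours against non-tumour liver (2.78), and Dlk1 in IKO and SKO tumours against WT (1.08 and 0.94) and against non-tumour liver (0.79 and 0.64). Gained were Meg3 in BKO at 3 months (-2.79) and 5 months (-2.44). That fit has fewer libraries for the spread. Genes called went from 835 to 526 in BKO at 5 months, 71 to 1 in BKO tumours, 1907 to 12 in BKO tumours against non-tumour liver, 467 to 35 in IKO tumours, 223 to 33 in SKO tumours, 523 to 0 in MKO tumours, 2245 to 82 in MKO tumours against non-tumour liver, 3510 to 1741 in WT tumours of group 2, 24 to 5 in MKO at 1 month, 351 to 572 in MKO non-tumour liver, 1708 to 413 in MKO from 1 to 8 months, 17 to 0 in the MKO difference of tumour effects and 4 to 1 in that of SKO.

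On recovered reads limma-voom lost H19 in BKO at 5 months (4.42), WT from 5 to 8 months (4.18) and the difference of tumour effects (-6.74), Igf2 in MKO at 1 month (3.52) and Dlk1 in SKO tumours (3.15), and gained Meg3 in SKO tumours (2.61), with the cause not tested. It moved genes called from 200 to 130 in BKO at 3 months, 17 to 9 in the MKO difference and 4 to 0 in that of SKO. The last went to 2 with the filter and 31 with quantile normalization, and the MKO difference to 9 with the filter. Chosen after seeing the data, the MKO average of H19 without the 1-month stage was 1.68 and lost its call, and the BKO average without 8 months called 1681 genes against 2540. The correlation of H19 and Igf2 was 0.626 on log2 reads and lost its call.

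Leaving out 1 library in turn gave 472 values for these differences. Of them 407 stayed on the same side of the threshold, called or not, 54 lost a call and 10 gained one. The remaining 1 changed sign (H19 in MKO tumours against non-tumour liver, range -1.39 to 0.289). Ranges for H19 were -4.10 to -1.87 in IKO tumours, -5.72 to -3.21 in BKO tumours, -4.77 to -3.51 in MKO tumours, 0.55 to 2.99 in SKO tumours against non-tumour liver, 2.39 to 4.46 in WT of group 1, 1.90 to 3.65 in WT from 5 to 8 months, 2.86 to 3.68 in BKO at 5 months, 3.34 to 5.51 in MKO at 1 month and -7.08 to -5.38 in the difference of tumour effects. Ranges for Igf2 were 1.96 to 3.69 in MKO at 1 month and 0.57 to 1.003 over its non-tumour stages. Ranges for Dlk1 were 0.79 to 1.22 in IKO tumours, 0.69 to 1.29 in SKO tumours, 0.11 to 1.64 in MKO tumours, and 0.50 to 0.97 and 0.39 to 0.99 in IKO and SKO tumours against non-tumour liver. Ranges for Meg3 were 0.26 to 2.13 in IKO tumours, 1.41 to 3.28 in SKO tumours, 1.80 to 3.81 in BKO tumours, 1.60 to 2.42 and 1.70 to 3.79 in IKO and BKO tumours against non-tumour liver, and 2.63 to 4.5 in the SKO difference of tumour effects. Depth limits Dlk1 most.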
